A study of Rattus norvegicus with 18 samples.

Results

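The mRNA levels of the nuclear genes for oxidative phosphorylation were examined in Rat1 fibroblasts with and without MYC and after silencing of the aryl hydrocarbon receptor (AHR). Members were taken by gene symbol, as every gene of the table whose symbol begins with Ndufa, Ndufb, Ndufc, Ndufs or Ndufv and a number, with Uqcr, with Atp5 or with Cox4 to Cox8, together with Sdha, Sdhb, Sdhc, Sdhd and Cyc1. This gave 76 of 13188 genes. By complex, 33 belong to complex I, 4 to complex II, 9 to complex III, 13 to complex IV and 15 to complex V. The other 2, Atp5s (coupling factor B) and Atp5sl (an assembly factor of complex I), match by symbol but are not subunits. Ndufa4 and Ndufa4l2 carry complex I symbols but were placed with complex IV, where NDUFA4 is now assigned.

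Complexes I to IV form the respiratory chain of the inner mitochondrial membrane. Complex I takes electrons from NADH and complex II from succinate, complex III passes them from ubiquinol to cytochrome c, and complex IV hands them to oxygen. Complexes I, III and IV pump protons, and complex V, the ATP synthase, uses the proton gradient to make ATP. Most subunits are nuclear genes with promoters that often carry sites for NRF1, ETS factors such as GABP, and YY1, while a few core subunits are made from mitochondrial DNA. MYC is known for raising mitochondrial biogenesis in many cells, and it binds the E-box CACGTG.

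The cells are the rat fibroblast line HO15.19, a Rat1 derivative that lacks myc (myc-/-) in all 6 groups. Each group has 3 libraries. The groups are myc-/- cells without transfection, myc-/- cells transfected with a control siRNA (myc-/- siCtrl), myc-/- cells given human MYC and not transfected (myc-/- + MYC), and MYC-expressing cells transfected with siCtrl (myc-/- + MYC siCtrl) or with 1 of 2 siRNAs against AHR, named siAHR-2 and siAHR-5. All cells grew in 10% serum, siRNA was used at 40 nM, and transfected cells were harvested at 48 h. MYC came from a retroviral vector, pBabe, in stably infected cultures, so its level is set by the vector's promoter rather than by its own. Nothing in the labels says that the 3 libraries of a group are separate cultures, so p-values measure the spread between these libraries, which may be technical. The deposited values are normalized expression on a log2 scale, and read depth is unknown. The transformation that made them is not given in the sources used here. If it shrank differences between libraries, the folds printed are too small, so each fold is one on the deposited scale.

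Myc-/- siCtrl and myc-/- + MYC (the set of 6 libraries) were on another scale than the other 4 groups (the set of 12), so each comparison was made within a set. Transfection is not matched in either MYC comparison: in the set of 6 only the cells without MYC carry an siRNA, and in the set of 12 only the cells with it, so that MYC and transfection cannot be told apart. This rests on the sample titles. The deposited columns of the set of 6 are headed control and Myc and name no siRNA, so whether those control cells were transfected is uncertain. Ahr was higher with MYC in both sets, at 12.39 to 12.50 against 12.88 to 13.03 in the set of 6 (log2FC 0.52, adjusted p = 8.33e-07 in limma) and at 11.67 to 12.01 against 13.22 to 13.34 in the set of 12 (1.40, adjusted p = 4.42e-05). Ahr was at 13.22 to 13.34 in myc-/- + MYC siCtrl, 11.97 to 12.03 with siAHR-2 and 11.76 to 11.95 with siAHR-5, a fall of 2.44-fold and 2.62-fold on the deposited scale. Human MYC was not analysed here. The row of rat Myc, which does not check the human transgene, was lower with MYC in both sets, at 9.16 to 9.47 against 8.01 to 8.08 and at 10.82 to 10.94 against 8.16 to 8.27. Though the line is labelled as lacking myc, these values were not near the bottom of the scale. What this row counts was not tested. Of the 8 fibroblast markers, Col1a1, Fn1 and Vim were at 15.05 or above in nearly all libraries except those with siAHR-2, where Col1a1 was at 14.91 to 14.94, but Col1a2 was at 3.64 to 4.13. With MYC, 4 of these 8 fell in each set, and Col3a1 rose in the set of 6, from 15.66 to 15.71 without to 16.92 to 17.07 with MYC. Of the markers of other cell types, Epcam (1.22 to 2.42) and Ptprc (2.84 to 4.65) were near the bottom of the scale, but Krt8 of epithelia was at 6.02 to 9.05 and rose with MYC in both sets (log2FC 1.70 and 1.17). Cdh1 of epithelia was at 3.61 to 4.31. Myh1 and Ckm of muscle fell with MYC in both sets, Myh1 from 10.77 to 10.83 down to 7.87 to 8.05 and Ckm from 8.76 to 8.87 down to 6.99 to 7.10 in the set of 6. The other muscle markers, Myh2 (0.30 to 3.26) and Actn2 (1.25 to 2.89), were near the bottom of the scale. Cd68 of macrophages was at 6.76 to 7.55 and, of endothelium, Pecam1 was at 6.47 to 7.57 and Cdh5 at 4.70 to 7.18. In the set of 6 Cdh5 was lower with MYC (log2FC -0.54) and Pecam1 higher (0.20). With siAHR-5, Thy1 rose from 11.34 to 11.44 up to 12.12 to 12.18, Pdgfrb, Pecam1 and Cdh5 were higher (log2FC 0.55, 0.26 and 0.15) and Vim lower (log2FC -0.48). The part of these markers in the results was not tested. In bulk RNA, fewer cells of a type and less RNA per cell cannot be told apart.

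One library stood apart for these genes. Myc-/- replicate 2 was above both other myc-/- libraries in 73 of 76 members, by a median of 0.20 log2 against the mean of the other two, while the median of all genes was 11.65 in it and 11.66 to 11.67 in the others. No other library was above, or below, both of its group's other libraries in more than 52 of 76 members. The median SD of a member was 0.12 in myc-/- and between 0.027 and 0.052 in the other 5 groups. The results of MYC in the set of 12 are therefore given with and without this library. Ndufa1, a small complex I subunit, and Cox6a2, the muscle form of a complex IV subunit, were near the bottom of the scale in every library (0.34 to 2.43 and 2.47 to 3.46), where a fold change says little. Genes with near-identical copies, such as Ndufa10 and Ndufa10l1, may share reads, and the counting method is not given in the sources used here.

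With MYC in the set of 6, more complex I members were lower than higher, and more complex V members higher than lower. A gene was said to rise or fall only if it changed 1.5-fold or more, with a limma p, adjusted over all 13188 genes, of at most 0.01. Fold changes are given as log2 differences (log2FC), MYC minus no MYC or siRNA minus control. By this rule 4 members rose, against 12.5% of all genes, and 3 fell, against 14.3%. Uqcr11, Ndufa6, Atp5g2 and Ndufa4l2 rose, and Ndufv2, Ndufv3 and Cox5b fell. With no fold cutoff and an adjusted p below 0.05, 26 members were higher (34.2%, with 37.3% of all genes) and 32 lower (42.1%, with 39% of all genes). By complex, 6 of 33 complex I members were higher and 19 lower, with a median log2FC of -0.15, whereas 8 of 15 complex V members were higher and 4 lower, with a median of 0.19. Complex II had 1 higher and 2 lower, complex III 5 higher and 2 lower, and complex IV 6 higher and 5 lower. The median over all members was -0.040 and over all genes -0.004.

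In the set of 12, fewer members passed. Ndufs1 rose (1 member, with 10.8% of all genes) and Ndufa5 fell (1 member, with 14.7%). At an adjusted p below 0.05, 18 members were higher (all genes 31.6%) and 22 lower (all genes 33.1%), and the medians were -0.063 for complex I, 0.083 for complex II, -0.037 for complex III, 0.077 for complex IV and 0.12 for complex V. Without myc-/- replicate 2, 32 members were higher (42.1%, with 32.9% of all genes) and 22 lower (28.9%, with 35.5%), the median over members moved from -0.004 to 0.061, and the members past both cutoffs became Ndufs1, Atp5g2 and Cox6c, all higher, while Ndufa5 was at -0.53. Without that library the median of complex I was -0.020 and that of complex V 0.19. Without myc-/- replicate 1 instead, these medians were -0.10 and 0.075, with 12 members higher and 22 lower. Without myc-/- replicate 3 they were -0.067 and 0.10, with 13 members higher and 22 lower.

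These counts moved with the scaling of the values. After quantile normalization the set of 6 had 41 members higher and 25 lower (median 0.11), with 40% and 35.8% of all genes, and the set of 12 had 32 members higher and 17 lower (median 0.13), with 38% and 29.3% of all genes. With each library centred on its median, the set of 6 had 23 higher against 39 lower (30.3% and 51.3%, with 33.4% and 47% of all genes), and the set of 12 had 23 against 20 (30.3% and 26.3%, with 42.2% and 30.7% of all genes). The median of complex V stayed above that of complex I in all of these settings, at 0.24 against -0.092 in the set of 6 and 0.24 against -0.003 in the set of 12 after quantile normalization. The difference between the 2 complexes was not tested.

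**Figure D1:**
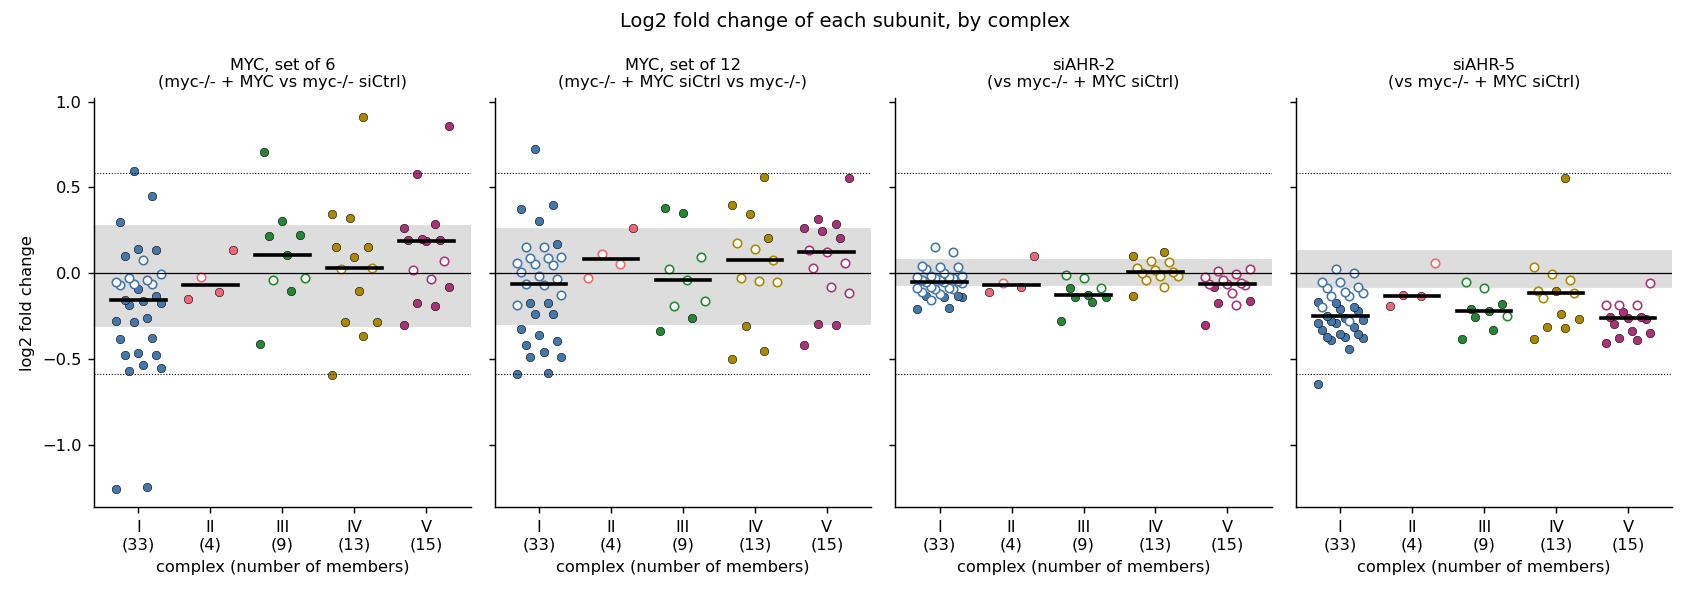
Log2 fold change (vertical axis) of each subunit in the 4 comparisons with a control, by complex, with the number of members in parentheses. Filled points have an adjusted p below 0.05, open points do not, thick bars are medians of a complex, dotted lines mark a 1.5-fold change and the grey band spans the middle quartiles of all genes. Ndufv2 and Ndufv3 lie lowest in the set of 6, and with siAHR-5 the medians of all 5 complexes are below 0, from -0.26 to -0.11.

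In the set of 6, the log2FC with MYC was largest in size for Ndufv3 and Ndufv2, both of the module of complex I where NADH is oxidised. Ndufv2 carries an iron-sulfur cluster. It was at 14.08, 14.02 and 13.99 in the 3 myc-/- siCtrl libraries and at 12.78, 12.79 and 12.78 in myc-/- + MYC. The groups did not overlap, and Ndufv2 fell by 1.24 (SE 0.031, limma adjusted p = 2.85e-11). The set of 12 had it at 14.10, 14.29 and 14.08 in myc-/- and at 13.70, 13.63 and 13.67 in myc-/- + MYC siCtrl. There it was lower by a log2FC of -0.49 (SE 0.061, adjusted p = 0.000682), which does not reach the fold cutoff.

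Ndufv3 is a small accessory subunit of the same module. Its values in the set of 6 were 14.79, 14.77 and 14.77 without MYC and at 13.61, 13.50 and 13.47 with MYC. It fell by 1.25 (SE 0.037, adjusted p = 9.71e-11), to 0.419 of its level. The set of 12 had it at 13.66, 13.71 and 13.69 without MYC and at 13.65, 13.65 and 13.56 with MYC, a log2FC of -0.069 (adjusted p = 0.14).

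Ndufv1, which binds NADH and FMN, was lower with MYC in both sets. It was at 14.66 to 14.70 without and 14.21 to 14.23 with MYC in the set of 6 (log2FC -0.47, adjusted p = 2.27e-08). The set of 12 had it at 15.47 to 15.63 without and 14.94 to 14.96 with MYC (log2FC -0.58, adjusted p = 8.4e-05), just short of the fold cutoff. Without myc-/- + MYC siCtrl replicate 2 or 3, or without myc-/- replicate 1 or 3, it passed both cutoffs.

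Ndufs1, the largest subunit of complex I, with several iron-sulfur clusters and also of that module, was higher with MYC in both sets. It was at 14.71, 14.67 and 14.70 in myc-/- and at 15.43, 15.37 and 15.45 in myc-/- + MYC siCtrl. All MYC libraries were above all myc-/- libraries, and Ndufs1 rose by 0.72 (SE 0.031, adjusted p = 7.18e-06), a 1.65-fold rise. It was one of the few members for which myc-/- replicate 2 was not the highest of its group. Its values in the set of 6 were 13.57 to 13.66 without and 13.74 to 13.75 with MYC, higher by 0.14 (adjusted p = 0.00169).

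**Figure D2:**
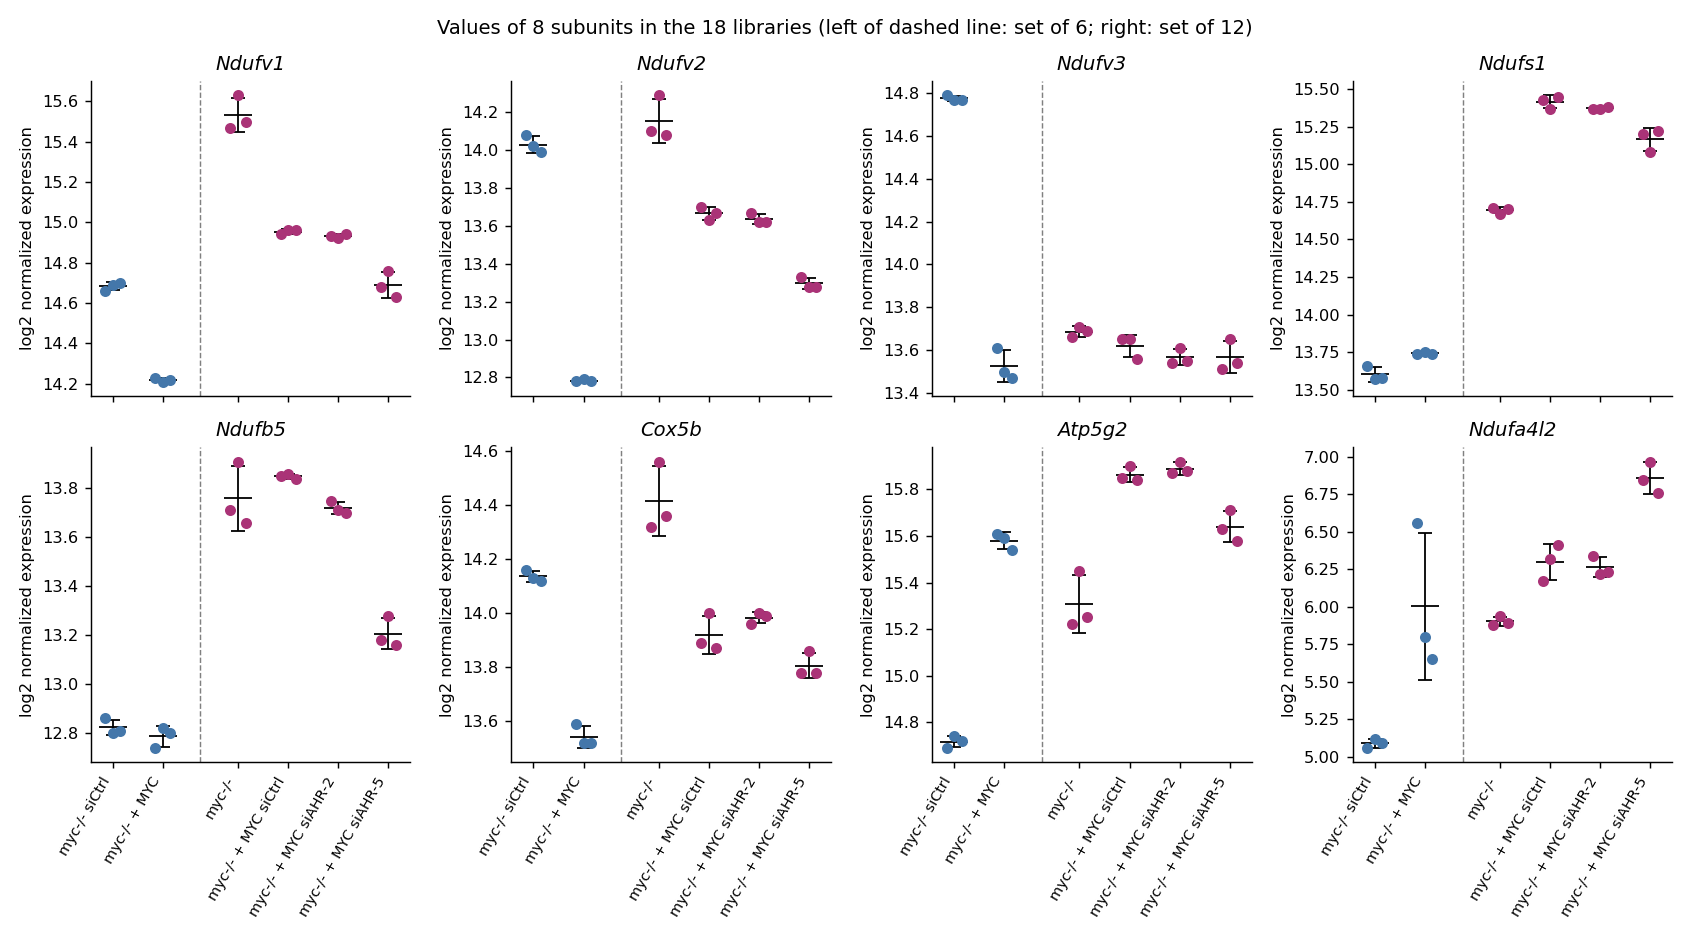
Deposited log2 normalized expression (vertical axis) of 8 subunits in each of the 18 libraries, as points, with the mean and SD of each group of 3. The dashed line parts the set of 6 (left) from the set of 12 (right), which are on different scales. Ndufv2 and Ndufv3 drop with MYC in the set of 6, Ndufs1 rises in the set of 12, Ndufb5 is lowest with siAHR-5 within its set, and 1 myc-/- + MYC library of Ndufa4l2, at 6.56, lies above the other 2.

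Other core subunits of complex I had small changes. Ndufs3 (-0.15 and -0.24 in the sets of 6 and 12) and Ndufs8 (-0.38 and -0.32) were lower at an adjusted p below 0.05 in both. Ndufs7 was at -0.002 and 0.092, past neither cutoff.

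Of the 26 accessory subunits of complex I, Ndufv3 fell and Ndufa6 rose in the set of 6, and Ndufa5 fell in the set of 12. Ndufa6, an LYR protein of the peripheral arm, was at 12.24, 12.13 and 12.16 without MYC and at 12.85, 12.74 and 12.72 with MYC in the set of 6. It rose by 0.59 (SE 0.044, adjusted p = 2.08e-07), close to the cutoff, and was short of it without myc-/- + MYC replicate 1 (0.55), without myc-/- siCtrl replicate 2 (0.57) and with median centring (0.55). It was also higher, by 0.38, in the set of 12 (adjusted p = 0.0095).

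Ndufa5, another peripheral arm subunit, was at 13.50, 13.67 and 13.51 in myc-/- and at 13.02, 12.89 and 13.01 in myc-/- + MYC siCtrl. It fell by 0.59 (SE 0.061, adjusted p = 0.000291). This call was lost without myc-/- replicate 2 (-0.53), without myc-/- + MYC siCtrl replicate 2 (-0.55) and under both scalings (-0.54). In the set of 6 Ndufa5 was lower by a log2FC of -0.57 (adjusted p = 1.71e-07), and it passed both cutoffs without myc-/- siCtrl replicate 2 (-0.60) and with median centring (-0.61). Ndufa10, an accessory subunit of the membrane arm, was at 13.44 to 13.47 without and 12.87 to 12.91 with MYC in the set of 6, a log2FC of -0.55 (adjusted p = 1.07e-08). The set of 12 had it at 14.33 to 14.44 without and 14.38 to 14.48 with MYC, a log2FC of 0.060 (adjusted p = 0.288). Ndufc2, also in the membrane arm, was lower in both sets, at -0.54 and -0.46, and Ndufs6, which binds zinc, was lower by smaller amounts, at -0.19 and -0.18. Ndufs6 was at 6.49 to 7.28 over all libraries, the lowest of complex I after Ndufa1. Its log2FC in the set of 12 changed sign after quantile normalization.

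No member of complex II, succinate dehydrogenase, passed both cutoffs. Sdha, which holds FAD, was higher with MYC in both sets, by 0.13 (adjusted p = 0.000721) and 0.27 (adjusted p = 0.000354). Its values in the set of 12 were 15.11 to 15.15 without and 15.36 to 15.43 with MYC. Sdhb, the iron-sulfur subunit, was lower by -0.15 in the set of 6 (adjusted p = 0.0005) and at 0.054 in the set of 12 (adjusted p = 0.333). The membrane anchors were at -0.11 (Sdhc) and -0.022 (Sdhd) in the set of 6 and at -0.026 and 0.11 in the set of 12. Of these 4 values only that of Sdhc in the set of 6 had an adjusted p below 0.05 (0.00758), and it turned to 0.10 after quantile normalization, where complex II had 3 members higher and 0 lower.

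In complex III, Uqcr11, a small accessory subunit, had the largest change. It was at 13.14, 13.13 and 13.16 in myc-/- siCtrl and at 13.91, 13.82 and 13.81 in myc-/- + MYC, and it rose by 0.70 (SE 0.033, adjusted p = 4.4e-09). The difference in the set of 12 was 0.35 (adjusted p = 0.006). Cyc1, the cytochrome c1 subunit that reduces cytochrome c, was higher in both sets, by 0.30 and 0.38, with adjusted p of 3.15e-06 and 0.000676. Uqcrfs1, the Rieske iron-sulfur protein, was higher by 0.22 in the set of 6 (adjusted p = 2.92e-05) and at 0.025 in the set of 12 (adjusted p = 0.75). Uqcr10 was the lowest of the complex in both sets, at -0.41 and -0.34.

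Complex IV members differed in direction. Cox5b, which binds zinc, was at 14.16, 14.13 and 14.12 in myc-/- siCtrl and at 13.59, 13.52 and 13.52 in myc-/- + MYC. It fell by 0.59 (SE 0.031, adjusted p = 1.05e-08), close to the cutoff, and in the set of 12 it was lower by a log2FC of -0.50 (adjusted p = 0.00146). Without myc-/- siCtrl replicate 1 or without myc-/- + MYC replicate 2 or 3, and after quantile normalization, it did not pass both cutoffs in the set of 6. Cox6c was at 14.24 to 14.49 in myc-/- and 14.83 to 15.00 in myc-/- + MYC siCtrl, higher by 0.56 (adjusted p = 0.00143), and higher by 0.16 in the set of 6 (adjusted p = 0.00239).

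Several subunits of complex IV exist as isoforms of different tissues. Cox4i1, the common form of subunit 4, was at 0.030 in the set of 6 (adjusted p = 0.392) but lower by a log2FC of -0.46 in the set of 12 (adjusted p = 0.00279), where it was at 16.15 to 16.39 without and 15.70 to 15.81 with MYC. Cox6a1, the common form of subunit 6a, was higher by 0.098 and 0.20, while its muscle form Cox6a2 stayed near the bottom of the scale. Cox7a2 was higher by 0.16 and 0.34, the related Cox7a2l, which helps join complexes III and IV, was higher by 0.32 in the set of 6 and at 0.077 in the set of 12, and Cox8a was lower by -0.29 and -0.30. Cox4i2, Cox6b1, Cox6b2, Cox7a1 and Cox8b were not analysed here.

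Ndufa4l2, the hypoxia-inducible relative of Ndufa4, was at 5.06, 5.12 and 5.09 in myc-/- siCtrl and at 6.56, 5.80 and 5.65 in myc-/- + MYC. It rose by 0.91 (SE 0.18, adjusted p = 0.000688), with 1 MYC library well above the other 2, and by 0.63 without that library. Without myc-/- siCtrl replicate 1 it did not pass. The set of 12 had it at 5.88 to 5.94 without and 6.17 to 6.41 with MYC, higher by 0.40 (adjusted p = 0.0027). Ndufa4 itself was lower by -0.28 in the set of 6 (adjusted p = 8.69e-06) and at -0.046 in the set of 12.

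In complex V, 2 of the 3 c ring genes had the highest log2FC in the set of 6. Atp5g1, Atp5g2 and Atp5g3 each encode the same mature c protein, the rotating ring through which protons pass. Atp5g2 was at 14.69, 14.74 and 14.72 in myc-/- siCtrl and at 15.61, 15.59 and 15.54 in myc-/- + MYC. It rose by 0.86 (SE 0.029, adjusted p = 3.23e-10), a 1.81-fold rise. The set of 12 had it at 15.22, 15.45 and 15.25 without and 15.85, 15.90 and 15.84 with MYC, higher by 0.56 (adjusted p = 0.000582) and by 0.63 without myc-/- replicate 2. Atp5g1 was at 13.43 to 13.46 without and 13.99 to 14.05 with MYC in the set of 6, higher by 0.58 (adjusted p = 8.13e-09), just short of the fold cutoff and past it without myc-/- + MYC replicate 1 (0.60) and after quantile normalization (0.76), and was higher by 0.27 in the set of 12 (adjusted p = 0.0143). Atp5g3 did not follow, at -0.031 and -0.12, with adjusted p of 0.312 and 0.227.

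The promoters of the 3 c ring genes differ in the motifs searched, and are shown for that reason, with the motif in capitals, 5′ to 3′ on the strand of the gene, from RefSeq (GRCr8, not the build of the reads). Atp5g1 holds an E-box on the minus strand of chr10:81523402-81523431 at -74, the position of its first base relative to the start of the gene. Atp5g3 holds an E-box on the minus strand of chr3:79220891-79220914 at -244. Atp5g2 holds no E-box but an NRF1 motif on the minus strand of chr7:135678253-135678285 at -55, which overlaps a match on the other strand. The letters of NRF1 are also in the window of Atp5g3, at 9 bases past the start.
Atp5g1: agggaccccgaaCACGTGggtgggggagct
Atp5g3: gcctggCACGTGcaaggagagagg
Atp5g2: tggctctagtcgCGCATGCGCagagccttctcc

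The F1 head, where ATP is made, moved little. Atp5b, the catalytic beta subunit, was higher by 0.20 in both sets (adjusted p of 4.39e-05 and 0.0125). Atp5a1, the alpha subunit, was lower by -0.17 in the set of 6 (adjusted p = 9.09e-05) and at 0.14 in the set of 12 (adjusted p = 0.0743). Atp5d and Atp5e, of the central stalk, were higher by 0.20 and 0.29 in the set of 6. Among the stalk and membrane subunits, Atp5i, at the dimer interface of the synthase, was the lowest in both sets, at -0.30 and -0.42.

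The 2 MYC comparisons share no library, so their results may be set side by side. At an adjusted p below 0.05, 15 members were higher in both sets (19.7%, with 24% of all genes), 18 lower in both (23.7%, with 25.3%) and 13 called in neither (17.1%, with 14.8%). Ndufb4 and Ndufb6, accessory subunits of the membrane arm, were called in opposite directions (2.63% of members, with 6.37% of all genes). No member passed both cutoffs in both sets, where 6.87% of all genes rose and 8.91% fell in both. The direction was the same in 58 of 76 members (76.3%), as in 76.4% of all genes, and the correlation of the log2FC across the 76 genes was 0.66 (Pearson), with 0.74 across all genes. By complex the direction was the same in 22 of 33 members of complex I, 2 of 4 of complex II, 8 of 9 of complex III, 12 of 13 of complex IV and 13 of 15 of complex V. Genes are not independent replicates, and these values are descriptions.

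**Figure D3:**
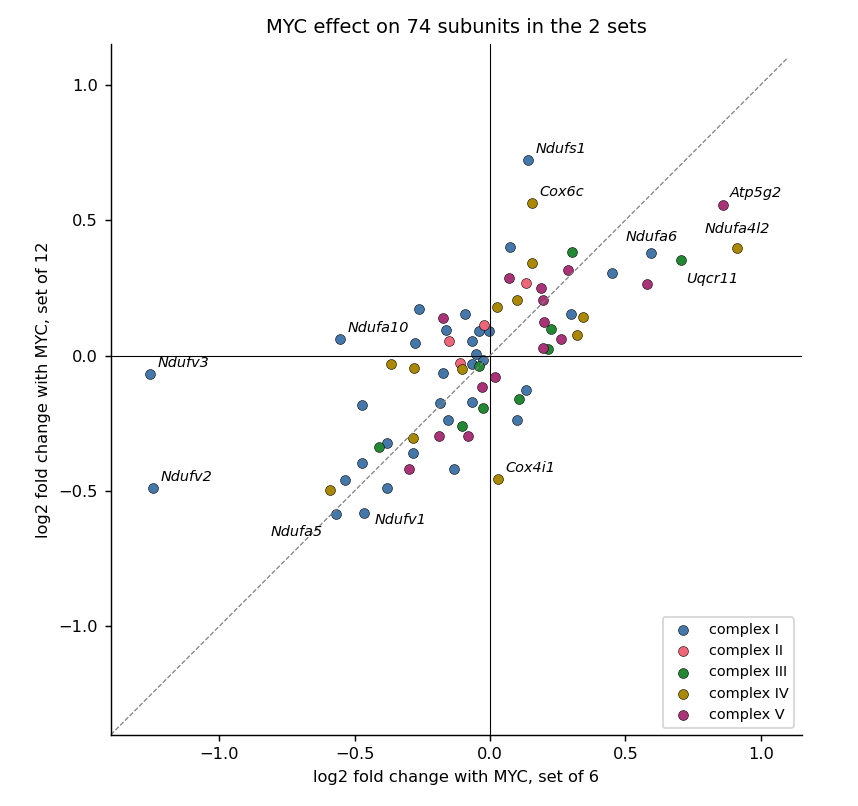
Log2 fold change with MYC in the set of 6 (horizontal axis) and in the set of 12 (vertical axis) for the 74 subunits, coloured by complex, with the dashed line marking equal values. Ndufv2, Ndufv3 and Ndufa10 lie well above the line at the left, and Ndufs1 and Cox6c lie above it at the right.

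The difference between the 2 effects was tested directly in 1 fit. It passed both cutoffs for 3 members, all in complex I and all with a higher log2FC in the set of 12 (all genes 6.79%), and for 0 members in the other direction (all genes 9.67%, and 19 members at an unadjusted p below 0.05 in limma, the only tool run, with 32.7% of all genes at that p). The difference was 1.19 (SE 0.058, adjusted p = 3.04e-10) for Ndufv3, 0.76 (SE 0.069, adjusted p = 3e-07) for Ndufv2 and 0.61 (SE 0.056, adjusted p = 2.8e-07) for Ndufa10. Just short of the cutoff lay Ndufs1, at 0.58 (adjusted p = 1.45e-07), which passed it with median centring (0.67) and in 5 of the fits with 1 library left out (0.59 to 0.60: without myc-/- + MYC siCtrl replicate 2, myc-/- replicate 1 or 3, or myc-/- siCtrl replicate 2 or 3). The effect, at an adjusted p below 0.05, was higher in the set of 12 for 17 members (all genes 24.8%) and lower for 12 (all genes 30.1%). Without myc-/- replicate 2 these were 31 and 12 (all genes 26.8% and 32.4%), after quantile normalization 15 and 19 (all genes 27.2% and 28.3%), and with median centring 27 and 7 (all genes 38.5% and 22.9%). Without myc-/- replicate 1 they were 16 and 19, and without myc-/- replicate 3 they were 16 and 17. Transfection and scale both differ between the sets and cannot be told apart from the effect of MYC.

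Silencing of AHR was examined against myc-/- + MYC siCtrl, which both siRNA comparisons share. With siAHR-2 no member rose (all genes 0.159%) or fell (all genes 0.311%) past both cutoffs. At an unadjusted p below 0.05 in limma, the only tool run, 5 members were higher and 27 lower, with 19.9% and 20.5% of all genes. At an adjusted p below 0.05, 3 members were higher (all genes 13.7%) and 19 lower (all genes 15.5%), and 56 of 76 had a log2FC below 0, with a median of -0.052. The 3 higher members were Sdhd, Ndufa4 and Cox7a2l. Complex III had the lowest median, -0.13, with all 9 members below 0 and 6 called lower, and complex IV was at 0.009. Leaving out any 1 of the 3 siAHR-2 libraries left 9 to 10 members lower, as against 14 to 23 without any 1 of the siCtrl libraries. With all groups of the set in 1 fit, 0 members were higher and 9 lower (all genes 11.5% and 12.6%), so that the calls of Sdhd, Ndufa4 and Cox7a2l were lost and complex III had 3 lower. Quantile normalization gave 7 higher and 12 lower (all genes 15.3% and 14.7%) with a median of -0.005, and median centring gave 1 higher and 29 lower (all genes 11.8% and 26.4%).

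With siAHR-5, 71 of 76 members were below control. The median log2FC over all 76 was -0.22, while the median of all genes was 0.013. At an adjusted p below 0.05, 47 members were lower (61.8%), against 18.1% of all genes, and 1 higher, against 21.1%. The median member was at -0.22, -0.17 and -0.26 in the 3 siAHR-5 libraries relative to the mean of siCtrl, at -0.046, -0.041 and -0.065 in the siAHR-2 libraries, and at -0.029, 0 and 0.032 in the siCtrl libraries themselves. No siAHR-5 library overlapped the other 2 groups in this median. Past both cutoffs, 1 member fell (all genes 0.849%) and 0 rose (all genes 1.47%, and 2 members higher at an unadjusted p below 0.05 in limma, with 26.5% of all genes at that p).

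The medians differed between complexes. Complex V had a median of -0.26 with 11 of 15 members lower, complex I -0.25 with 21 of 33, complex III -0.22 with 6 of 9, complex II -0.13 with 3 of 4 and complex IV -0.11 with 6 of 13. In complex V all 15 members and in complex III all 9 were below 0. Leaving out any 1 library left 43 to 59 members lower and 1 to 2 higher. After quantile normalization 51 members were lower and 2 higher (all genes 19.4% and 19.9%), and with median centring 61 were lower and 1 higher (all genes 34.5% and 16.2%).

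**Figure D4:**
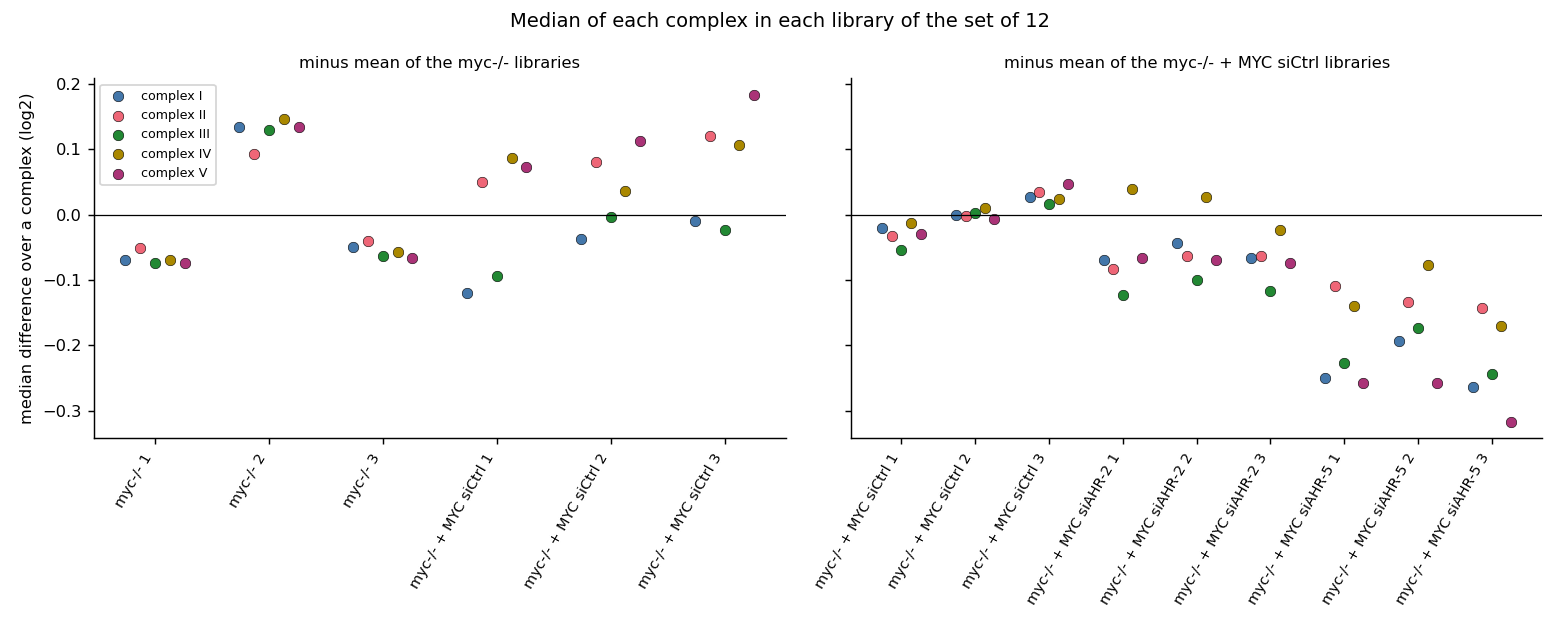
Median difference over the members of each complex (vertical axis, log2) in each library of the set of 12, relative to the mean of the myc-/- libraries (left) and of the myc-/- + MYC siCtrl libraries (right). Myc-/- replicate 2 lies above the other 2 myc-/- libraries in every complex, and the 3 siAHR-5 libraries lie below 0 in every complex.

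Ndufb5, an accessory subunit of the membrane arm of complex I, was the member that fell. It was at 13.85, 13.86 and 13.84 with siCtrl, at 13.75, 13.71 and 13.70 with siAHR-2 and at 13.18, 13.28 and 13.16 with siAHR-5. The 3 groups did not overlap. It fell by 0.65 with siAHR-5 (SE 0.035, adjusted p = 0.000335), to 0.639 of its level, and this call held with each library left out and under each scaling. With siAHR-2 it was lower by a log2FC of -0.13 (adjusted p = 0.00434), and it was not called in either MYC comparison (-0.040 and 0.091).

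Core subunits of complex I followed the same direction with siAHR-5. Ndufv2 was at 13.63 to 13.70 with siCtrl and 13.28 to 13.33 with siAHR-5 (log2FC -0.37, adjusted p = 0.000587). Ndufs3 was at 13.07 to 13.21 with siCtrl and 12.73 to 12.79 with siAHR-5 (-0.38, adjusted p = 0.00156). Ndufv1, Ndufs1 and Ndufs8 were lower by -0.26, -0.25 and -0.29, and Ndufs7 was at -0.20 without passing (adjusted p = 0.0917). Ndufv3 was at -0.053 (adjusted p = 0.433) and Ndufc2 at 0.026 (adjusted p = 0.72).

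All 3 c ring genes were lower with siAHR-5. Atp5g3 was at 15.10, 15.05 and 15.21 with siCtrl and at 14.71, 14.76 and 14.66 with siAHR-5 (log2FC -0.41, adjusted p = 0.00233). Atp5g1 was lower by -0.39 (adjusted p = 0.00902) and Atp5g2 by -0.23 (adjusted p = 0.00798). With siAHR-2 these 3 were at -0.064, -0.12 and 0.026, past the cutoff in none. In the F1 head, Atp5a1 was lower with both siRNAs, at 17.40 to 17.51 with siCtrl, 17.14 to 17.17 with siAHR-2 and 17.05 to 17.08 with siAHR-5 (log2FC -0.30 and -0.38, adjusted p of 0.00211 and 0.000713). Atp5b was lower by -0.080 with siAHR-2, which turned to 0.10 after quantile normalization, and by -0.27 with siAHR-5, and Atp5d was at -0.054 with siAHR-5 (adjusted p = 0.427), the smallest change of the complex.

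In complex III, Uqcrb, which helps bind ubiquinone, was lower with both siRNAs, at 12.98 to 13.10 with siCtrl, 12.71 to 12.82 with siAHR-2 and 12.61 to 12.67 with siAHR-5 (log2FC -0.28 and -0.38). Uqcrfs1 was lower by -0.13 and -0.25, Cyc1 by -0.087 with siAHR-2 and at -0.084 with siAHR-5 (adjusted p = 0.137), and Uqcrh by -0.33 with siAHR-5 but at -0.010 with siAHR-2. Uqcr11 was at -0.048 with siAHR-5 (adjusted p = 0.596). In complex II, Sdha and Sdhb were lower by -0.13 and -0.19 with siAHR-5, whereas Sdhd was higher with siAHR-2 by 0.10 (adjusted p = 0.0276) and at 0.058 with siAHR-5.

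Complex IV held the exception. Ndufa4l2 was at 6.17, 6.32 and 6.41 with siCtrl, at 6.34, 6.22 and 6.23 with siAHR-2 and at 6.85, 6.97 and 6.76 with siAHR-5. The siAHR-5 libraries were above all others, and Ndufa4l2 was higher by 0.56 (SE 0.084, adjusted p = 0.00455), short of the fold cutoff, and past it without myc-/- + MYC siCtrl replicate 3 (0.62). It was the 1 member higher with siAHR-5. Ndufa4 was higher by 0.13 with siAHR-2 (adjusted p = 0.0047) and lower by -0.10 with siAHR-5 (adjusted p = 0.0237). Cox4i1 was the lowest of the complex with siAHR-5, at 15.70 to 15.81 with siCtrl and 15.33 to 15.47 with siAHR-5 (log2FC -0.38, adjusted p = 0.00263), Cox7a2 was lower by -0.32 (adjusted p = 0.000878), Cox5a was lower by -0.27 (with siAHR-2 it was lower by -0.13, a call lost with all groups in 1 fit, after quantile normalization, without any 1 siAHR-2 library and without siCtrl replicate 2), and with siAHR-5 Cox6a1, Cox7a2l and Cox8a were not called.

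The 2 siRNAs were then compared with each other, without the shared control. In siAHR-5 against siAHR-2, 1 member rose (all genes 1.33%) and 0 fell (all genes 0.849%, and 53 members lower at an unadjusted p below 0.05 in limma, with 20.8% of all genes at that p). The riser was Ndufa4l2, at 0.60 (SE 0.066, adjusted p = 0.00152). It did not pass both cutoffs after quantile normalization, with median centring, or without siAHR-2 replicate 2 or 3 or siAHR-5 replicate 2. With siAHR-5, 47 members were lower at an adjusted p below 0.05 (61.8%, with 17% of all genes) and 1 higher (with 22.1% of all genes), and the median was -0.16. By complex the medians were -0.21, -0.062, -0.081, -0.18 and -0.19 for complexes I to V. Ndufb5 was the lowest member, at -0.52 (adjusted p = 0.000368). The log2FC of Ahr between the siRNAs was -0.11 (SE 0.057, adjusted p = 0.211).

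Genes that act on the complexes were examined from lists of assembly factors, to which the inhibitor Atpif1 was added. The complex I list also holds Ndufab1, itself a subunit of complex I that the member rule missed by its symbol. Of the genes of these lists, 40 were in the table. With MYC, 6 rose and 1 fell in the set of 6, and 8 rose and 2 fell in the set of 12, with medians of 0.17 and 0.20. The shares that rose were 15% and 20%, with 12.5% and 10.8% of all genes, and those that fell 2.5% and 5%, with 14.3% and 14.7% of all genes. Ecsit and Nubpl, assembly factors of complex I, rose in both sets. Nubpl, which delivers iron-sulfur clusters, was at 9.15 to 9.28 without and 9.99 to 10.20 with MYC in the set of 6, and at 9.98 to 10.06 without and 10.86 to 11.06 with MYC in the set of 12. It rose by 0.85 and 0.93, and Ecsit rose by 0.89 and 0.73. Ndufaf6 rose by 0.69 in the set of 6 and Acad9 by 0.73 in the set of 12.

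For the other complexes, Atpaf2, a chaperone of the F1 head, rose by 0.82 and 0.66. Lyrm7, for complex III, rose by 0.98 in the set of 6, and Coa3, for complex IV, by 0.85. Lrpprc, which stabilises mitochondrial mRNAs, and Cox11, a copper chaperone, rose by 0.90 and 0.83 in the set of 12. Coa5 fell in both sets, by 0.83 and 0.85, and Sdhaf2, which adds FAD to Sdha, fell by 0.94 in the set of 12. With the siRNAs, 0 assembly factors passed both cutoffs in either direction. At an unadjusted p below 0.05 in limma, the only tool run, 5 were higher and 8 lower with siAHR-2 (all genes 19.9% and 20.5%), and 3 were higher and 21 lower with siAHR-5 (all genes 26.5% and 21.2%). Atpif1, the inhibitor of the synthase, was lower by -0.50 with siAHR-5 (adjusted p = 0.0007) and Atpaf1 by -0.47 (adjusted p = 0.000295).

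Coenzyme Q and cytochrome c carry electrons between the complexes. Of 13 genes of coenzyme Q synthesis and cytochrome c, 4 rose and 1 fell in the set of 6 (30.8% and 7.69%, with 12.5% and 14.3% of all genes), and 5 rose and 1 fell in the set of 12 (38.5% and 7.69%, with 10.8% and 14.7%). Pdss2, which makes the side chain of coenzyme Q, was at 9.54 to 9.65 without and 10.77 to 10.95 with MYC in the set of 6 and rose by 1.27 and 1.23. Adck3, a kinase-like protein needed for coenzyme Q synthesis, rose by 1.68 and 1.22, and was lower with siAHR-5 than with siAHR-2 by a log2FC of -0.69 (adjusted p = 0.000118). Coq10b, which binds coenzyme Q, fell by 1.12 and 1.07. Cycs, cytochrome c, was lower in the set of 6 (-0.42) and at 0.042 in the set of 12.

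Of 13 regulators of mitochondrial genes, 2 rose in each set (15.4%, with 12.5% and 10.8% of all genes) and 0 fell, with 5 and 1 lower at an unadjusted p below 0.05 in limma, the only tool run (all genes 39.7% and 34.3%). Ppargc1a, a coactivator of mitochondrial biogenesis, rose by 0.97 and 0.72, and Polrmt, the mitochondrial RNA polymerase, by 0.79 and 0.59. With the siRNAs, 0 of 13 passed both cutoffs in either direction. At an unadjusted p below 0.05 in limma, 3 were higher and 4 lower with siAHR-2 (all genes 19.9% and 20.5%), and 4 were higher and 1 lower with siAHR-5 (all genes 26.5% and 21.2%). Subunits made from mitochondrial DNA were not analysed here.

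Promoter windows of 300 bases, from 250 before to 50 after the start of the gene, were at hand for 65 of the 76 members. Letters were searched on both strands, and a match is a description, not a site. The NRF1 letters CGCNTGCGC were in 18 windows (27.7%, with 6.26% of the 27457 windows of all RefSeq genes at hand), the ETS letters CCGGAAG in 19 (29.2%, with 9.22%) and the YY1 letters AANATGGCG in 15 (23.1%, with 3.33%). The E-box CACGTG was in 6 (9.23%, with 6.65%), of which 4 are in complex V (Atp5f1, Atp5g1, Atp5g3 and Atp5l) and 2 in complex I (Ndufa7 and Ndufb3). In 20 windows none of the 4 was found. The 27457 windows were not limited to genes of the table, so the shares are not matched for expression.

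The E-box windows outside the c ring were the following, shown because the E-box is the letters MYC binds. They lie on the minus strand at chr2:196123893-196123922 for Atp5f1 and at chr8:54130541-54130570 for Atp5l, and on the plus strand at chr7:15311319-15311348 for Ndufa7 and at chr9:67623319-67623348 for Ndufb3.
Atp5f1: ggaggaacaccaCACGTGgtgcacctctgc
Atp5l: ctcgttattctcCACGTGttatcttgcctc
Ndufa7: gcggagaggagtCACGTGagcaggggatgc
Ndufb3: attgagtgggtcCACGTGcttaataacaac

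Members with an E-box had a median log2FC with MYC of 0.13 in the set of 6 (from -0.16 to 0.58, 6 genes) and 0.20 in the set of 12 (from -0.12 to 0.29), while the 59 without one were at -0.065 and -0.037. Of these 6 genes, 4 are in complex V, whose own medians were 0.19 and 0.12. The other 2 are in complex I, at -0.15 and -0.063. E-box and complex were not separated, and the difference was not tested. Atp5g2, the member of complex V that rose most, has none in this window, whereas Atp5g3 has one and was called in neither set. With siAHR-5 the medians were -0.22 with and -0.24 without an E-box, -0.22 and -0.25 for the NRF1 letters, -0.25 and -0.23 for ETS, and -0.25 and -0.23 for YY1. Ndufv3, which fell in the set of 6, holds an NRF1 motif on the plus strand of chr20:9613735-9613767, as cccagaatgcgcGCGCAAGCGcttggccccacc, with the match on the opposite strand.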

How the data were processed

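RNA-seq values of 18 libraries in 6 groups of 3 were analysed. Per the labels, poly-A RNA was sequenced. The authors aligned reads to rn6 with HISAT2 2.1.0, dropped genes whose reads summed to under 10, used DESeq2 for normalization and deposited log2 expression of 13188 genes. The read counter, the annotation and the transformation are not given in the sources used here, and depth is unknown, so the spread between libraries is the error used.

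Comparisons were fitted with limma 3.58.1 in R 4.3.3 (lmFit, eBayes with a mean-variance trend), using only the groups compared, on all genes with Benjamini-Hochberg adjustment over them. Cutoffs were a 1.5-fold change and an adjusted p of 0.01, or an adjusted p of 0.05 alone. The fits were tested on simulated data. Alternatives were the cutoff, all groups of a set in 1 fit, no trend, quantile normalization, median centring, a pseudocount of 1, only genes with a mean of 1 or more, a replicate block and each library left out.

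Members and lists were chosen with earlier results of these data known. Named genes are the highest and lowest log2FC of each complex in the 4 comparisons with a control, members past the cutoffs with an siRNA or in the difference between the MYC effects, catalytic and redox subunits (some results are not reported here), isoforms, and up to 3 genes past the cutoffs of each related list and comparison. Other members are named where a count is small or a motif is shown, and were chosen after their values were seen. Promoters came from RefSeq (GRCr8), with 59 members matched by symbol and 17 by synonym. Value columns without a sample numbered 0.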

Additional observations from a re-analysis of the deposited data

Results flagged for a closer look

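The effect of MYC differed between the set of 12 and the set of 6, by the test of the difference itself, for 3 complex I members: by 1.19 for Ndufv3, 0.76 for Ndufv2 and 0.61 for Ndufa10, each with a log2FC closer to 0, or above it, in the set of 12. Ndufa4l2 differed between the 2 siRNAs against AHR, at 0.60 higher with siAHR-5 than with siAHR-2. In myc-/- + MYC this gene also had 1 library, at 6.56, above the other 2, at 5.80 and 5.65. The causes were not tested.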

How the results depend on the processing

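In the set of 12, quantile normalization and median centring each gave 3 higher and 0 lower, and leaving out 1 library gave 1 to 3 higher and 0 to 2 lower. Without myc-/- replicate 2 the counts were 3 and 0. In the set of 6, settings ranged from 3 to 5 higher and 2 to 5 lower, with 5 lower under median centring. With siAHR-5, leaving out 1 library gave 0 to 1 higher, and in siAHR-5 against siAHR-2 it gave 0 to 1 higher, with 0 under both scalings. With no fold cutoff the counts were 26 higher and 32 lower (set of 6), 18 and 22 (set of 12), 3 and 19 (siAHR-2), 1 and 47 (siAHR-5), 17 and 12 (difference between the MYC effects) and 1 and 47 (siAHR-5 against siAHR-2). Among named members with a called value, quantile normalization turned the sign of Sdhc (0.10) for MYC with the 6 libraries, of Ndufs6 (0.050) with the 12, Atp5b (0.10) with siAHR-2 and Atp5a1 (0.040) between the siRNAs. Over all 76 members, those below 0 went from 44 to 31 (6 libraries), from 38 to 30 (12 libraries) and from 56 to 42 (siAHR-2). The causes were not tested.

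Same-numbered libraries had 15 correlations of their deviations, from -0.26 to 0.24 over 5 pairs of groups with 3 numbers each, and no pair of groups had all 3 above 0.1. With only 3 libraries a group, these correlations cannot show whether same-numbered libraries belong together. A fit with the replicate block gave 4 higher and 3 lower members for MYC with the 6 libraries, 1 and 1 with the 12, 0 and 0 with siAHR-2, 0 and 1 with siAHR-5, 3 and 0 for the difference between the MYC effects and 1 and 0 between the siRNAs. With siAHR-2 the block left 0 of 13188 genes past both cutoffs (smallest adjusted p 0.0126), so its counts say nothing on stability. Unknown depth limits what can be said of genes at low values.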
